A study of Arabidopsis thaliana with 16 samples.

Results

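The comparison set untreated roots of the quadruple mutant ein3eil1rhd6rsl1 against untreated roots of the double mutant rhd6rsl1 in Arabidopsis thaliana, and so asked which transcripts depend on EIN3 and EIL1 in hairless roots that received no ethylene. It rested on 4 of the 16 libraries of the series, 2 biological replicates of each genotype, taken by their genotype and treatment labels. Both groups carry the rhd6 and rsl1 mutations, and the quadruple mutant also carries ein3 and eil1; the labels name no alleles. Seedlings were 6 d old and had grown vertically on MS medium. The 12 other libraries hold ein3eil1, Col-0 and the ethylene-treated counterparts of all 4 genotypes (10 ppm for 4 h). All were poly(A) RNA of roots, so in these bulk samples fewer cells of a type and less RNA per cell cannot be told apart.

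EIN3 and EIL1 are the transcription factors at the end of the ethylene pathway. Without the hormone, its receptors keep the kinase CTR1 active, the membrane protein EIN2 is held back, and the F-box proteins EBF1 and EBF2 mark EIN3 and EIL1 for degradation; with the hormone, EIN3 and EIL1 accumulate and switch on receptors, F-box genes and ERF genes, part of which feed back on the pathway. RHD6 and RSL1 are basic helix-loop-helix factors that start root hair development in the epidermis. Roots that lack both make almost no hairs.

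The 4 libraries held 40.9 M and 39.0 M counted reads (rhd6rsl1; M, mega) and 42.7 M and 43.6 M (quadruple mutant), within the range of 33.0 M to 45.0 M of all 16. Replicates correlated at Pearson r = 0.9968 in rhd6rsl1 and 0.9943 in the quadruple mutant over log2(CPM + 1) of the loci tested. All 4 libraries carry the same letter in their run code, whose meaning is not given. Root hair specific (RHS) genes were low in all 4. The summed level of the 17 genes was 32.9 and 34.9 CPM in rhd6rsl1 and 31.2 and 31.5 CPM in the quadruple mutant. It was 1180 and 1300 CPM in untreated Col-0. RHS11 alone gave 20.8 and 19.9 CPM of the sum in rhd6rsl1. The hair gene RHD2 was not silent, at 46.3 and 44.1 CPM in rhd6rsl1 and 38.5 and 29.5 CPM in the quadruple mutant. In untreated Col-0 RHD2 was at 98.5 and 104 CPM. CPM are counts per 1 M reads of the library, scaled by TMM (trimmed mean of M-values). Markers of the hairless epidermis were present, with GL2 at 26.5 and 25.6 CPM in rhd6rsl1 and 29.2 and 27.5 CPM in the quadruple mutant. Photosynthesis transcripts, a sign of shoot tissue, summed to 391 to 524 CPM.

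Replicate 2 of the quadruple mutant stood apart from replicate 1 by transcript length. Its log2 ratio to replicate 1 fell with spliced length at a Spearman correlation of -0.72 over 15244 loci, against -0.18 to 0.11 within the other 7 groups. Its median over replicate 1 was 0.27 on the log2 scale for transcripts under 1000 bases and -0.48 for those of 4000 bases or more. Replicate 1 alone differed from rhd6rsl1 by a median of 0.02 for the shortest and -0.02 for the longest class, and replicate 2 alone by 0.29 and -0.49. In the fit of both replicates 1.95% of all 22304 loci tested were called higher and 2.37% lower (4.33% called). The length classes hold only part of these loci. Of 1606 loci under 1000 bases 55 were called higher and 30 lower (5.29% called). Of 728 loci in the longest class 3 were called higher and 18 lower (2.88% called). Most gene groups with calls below are therefore also given without that library, or with the length trend removed from every library. Leaving out that library was a planned setting, while removal of the trend was added after the trend was seen. Both were picked for display here after it was seen. Sulfur, touch, cold and type-A response regulator genes and the class III peroxidases are given from the full fit only. The part of the trend in the single calls was not otherwise tested.

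**Figure D1:**
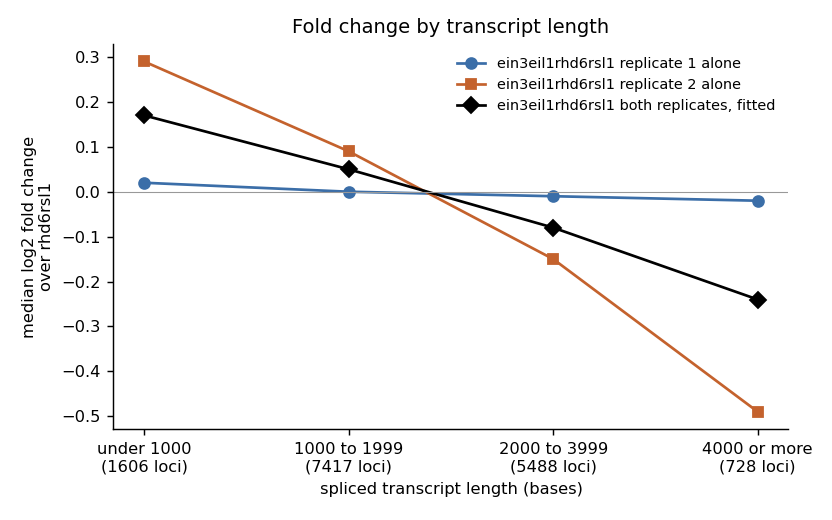
Median log2 fold change of the quadruple mutant over untreated rhd6rsl1 (y axis) in 4 classes of spliced transcript length in bases (x axis), for each replicate of the quadruple mutant alone and for the fit of both. Replicate 1 lies between 0.02 and -0.02, while replicate 2 goes from 0.29 in the shortest class to -0.49 in the longest.

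Of 22304 loci tested, 965 (4.33%) passed an adjusted p of 0.05 in edgeR's quasi-likelihood F test, 436 higher (1.95%) and 529 lower (2.37%) in the quadruple mutant. At least 2-fold changes made up 318 of them, 147 higher and 171 lower. Libraries of the 2 genotypes did not overlap at 45.9% of all loci tested, and 4278 loci had an unadjusted p below 0.05. Without replicate 2 of the quadruple mutant 485 loci were called (239 higher and 246 lower), 454 of them among the 965. With the length trend removed 1016 were called, 828 of them shared. The count fell to 463 and 482 without either rhd6rsl1 library and rose to 3357 without replicate 1 of the quadruple mutant, which leaves the library with the length trend alone on that side. The median change over all loci was 0.01 on the log2 scale.

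The mutated genes were read first as a check of the labels. EIN3 was at 185 and 174 CPM in rhd6rsl1 and at 35.4 and 28.7 CPM in the quadruple mutant, a log2 fold change of -2.48 ± 0.10 (standard error, adjusted p = 1.1e-10). EIL1 was at 63.1 and 66.3 against 25.5 and 20.7 CPM (-1.48 ± 0.10, adjusted p = 1.1e-07). In both genes the groups lay far apart, and a remnant of transcript was left in both mutant libraries. RHD6 was at 7.92 and 7.93 against 7.36 and 6.48 CPM, and RSL1 at 1.86 and 2.00 against 2.04 and 2.02 CPM; neither passed the test. Both groups carry mutations in these genes.

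Part of the genes of the ethylene pathway itself fell without EIN3 and EIL1 although no ethylene had been given. Of 17 receptors, signalling and feedback genes, 10 fell and none rose, against 2.37% of all loci called lower; their median log2 fold change was -0.66, against 0.01 over all loci. Receptors of the same family differed. ETR2, a receptor without a functional histidine kinase motif, was at 25.3 and 25.7 CPM in rhd6rsl1 and at 1.54 and 1.81 CPM in the quadruple mutant (-3.92 ± 0.15, adjusted p = 9.9e-11). ERS1 fell from 150 and 142 to 88.7 and 81.7 CPM (-0.78 ± 0.08, adjusted p = 7.8e-06), and ERS2 from 7.51 and 7.75 to 4.83 and 4.58 CPM (-0.70 ± 0.13, adjusted p = 0.0034). The remaining receptors did not pass the test, with ETR1 at 55.0 and 52.9 against 52.5 and 42.6 CPM and EIN4 at 47.3 and 52.7 against 48.4 and 48.4 CPM.

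The F-box genes that target EIN3 and EIL1 for degradation both fell. EBF2 was at 151 and 148 CPM in rhd6rsl1 and at 23.4 and 22.0 CPM in the quadruple mutant (-2.72 ± 0.10, adjusted p = 9.9e-11), and EBF1 at 123 and 122 against 54.7 and 49.3 CPM (-1.24 ± 0.08, adjusted p = 4.6e-08). ARGOS and ARL (ARGOS-LIKE), membrane proteins that lower ethylene sensitivity when overproduced, fell too. ARL went from 8.44 and 9.49 to 0.899 and 1.06 CPM (-3.19 ± 0.23, adjusted p = 1.6e-07), and ARGOS from 2.44 and 2.85 to 0.426 and 0.470 CPM (-2.55 ± 0.21, adjusted p = 7.7e-07). Changes of RTE1, which acts with the receptor ETR1, and of CTR1 and EIN2 were smaller, at -0.66, -0.43 and -0.44. RTE1, CTR1 and EIN2 lost the call without replicate 2 of the quadruple mutant (adjusted p = 0.087, 0.23 and 0.24), and EIN2, with a spliced length of 4851 bases, also with the length trend removed (0.068). Without that library the change of RTE1 was -0.65, and those of CTR1 and EIN2 were -0.26 and -0.24. With the length trend removed RTE1 was at -0.75 (adjusted p = 0.0041). The other 7 kept it under both settings.

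**Figure D2:**
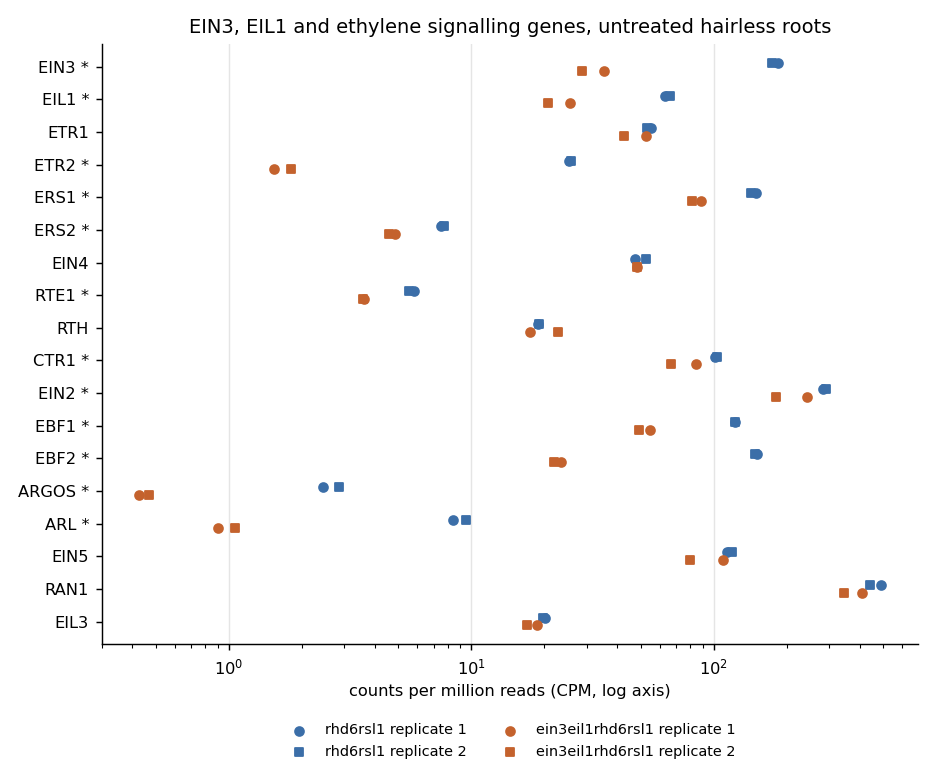
Levels in CPM (log axis) of EIN3, EIL1 and the ethylene signalling and feedback genes in the 4 libraries, circles for replicate 1 and squares for replicate 2, with an asterisk at genes called. EIL2, at or near 0 in all 4, is not drawn; ETR2, EBF2, ARGOS and ARL show the widest gaps, and ETR1, EIN4, RTH and EIL3 show nearly none.

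Ethylene-responsive transcription factor genes moved the same way in part. Of 15 tested, 6 fell and none rose, against 2.37% of all loci called lower, with a median of -0.43 on the log2 scale. ORA59, an activator of defensin genes under jasmonate and ethylene, was at 9.24 and 7.31 CPM in rhd6rsl1 and at 1.23 and 2.61 CPM in the quadruple mutant (-2.11 ± 0.26, adjusted p = 7.5e-05). EBP went from 19.4 and 12.8 to 4.69 and 6.46 CPM (-1.53 ± 0.19, adjusted p = 5.8e-05). EDF3, of the RAV family, went from 17.0 and 16.8 to 8.95 and 8.86 CPM (-0.92 ± 0.16, adjusted p = 0.0019). EDF4 and the repressor ERF4 fell by 0.43 each on the log2 scale, and ERF2 by 1.14. Without replicate 2 of the quadruple mutant ERF2 and ERF4 were no longer called (adjusted p = 0.17 and 0.072), while ERF1 and EDF1 were (both 0.032). The changes of ERF2 and ERF4 were then -1.03 and -0.50, and both were called with the length trend removed (0.014 and 0.0044). In the full comparison ERF1, a direct EIN3 target, was near 0 on both sides, at 0.342 and 0.207 against 0 and 0.188 CPM. ERF5, ERF6, ERF8, ERF9 and ERF104 changed by -0.19 to 0.20 and did not pass the test.

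The enzymes that make ethylene were mostly level. Only 1 of 13 tested genes of ACC synthases, ACC oxidases and their regulator ETO1 was called, against 4.33% of all loci. It was the ACC oxidase gene ACO5, at 353 and 390 CPM in rhd6rsl1 and 206 and 214 CPM in the quadruple mutant (-0.82 ± 0.10, adjusted p = 4.7e-05). The members ACS11 (-0.92, adjusted p = 0.053) and ACO4 (-0.44, adjusted p = 0.066), lay just outside the threshold, and passed it with the length trend removed (0.047 and 0.032).

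The largest falls lay partly outside the pathway. Among called loci with a mean of at least 5 CPM and no overlap between the genotypes, the 15 largest falls included 3 that left 22 to 32 reads over both quadruple mutant libraries together. AT4G33720, of the CAP family of secreted proteins to which PR-1 belongs, was at 36.3 and 18.1 CPM in rhd6rsl1 and 0.0947 and 0.423 CPM in the quadruple mutant (-6.70 ± 0.59, adjusted p = 1.6e-06). AT5G19890, a class III peroxidase gene, was at 17.0 and 18.2 against 0.0947 and 0.611 CPM (-5.62 ± 0.47, adjusted p = 8.6e-07). A second peroxidase gene, AT1G49570, was at 12.3 and 11.4 against 0.331 and 0.423 CPM (-4.96 ± 0.21, adjusted p = 1.2e-10). Within the 4 libraries compared, all 3 transcripts were thus present in both of rhd6rsl1 and nearly absent from both of the quadruple mutant. In untreated Col-0, which has EIN3 and EIL1, AT4G33720 was at only 1.17 and 0.727 CPM.

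Several regulators stood in the same group of 15. RAP2.6, an ERF family factor of stress responses, fell from 17.8 and 19.6 to 1.35 and 1.29 CPM (-3.82 ± 0.18), and Rap2.6L from 14.5 and 14.4 to 2.98 and 2.54 CPM (-2.39 ± 0.13). AHP1, a phosphotransfer protein of cytokinin signalling, fell from 84.9 and 81.6 to 11.6 and 14.7 CPM (-2.66 ± 0.11), and MYB27 from 10.1 and 8.76 to 1.94 and 1.22 CPM (-2.58 ± 0.18). The others were LEA7, a late embryogenesis abundant protein gene (-4.38 ± 0.58), the glycine-rich protein gene AT2G05510 (-3.35 ± 0.27), OSM34 and AT2G18690 (-2.46 ± 0.13), besides ETR2, EBF2, EIN3 and ORA59 described above. In absolute CPM the mutant replicates were farthest apart at AT2G05510, at 21.1 and 8.36 CPM against 173 and 128 CPM in rhd6rsl1. As a ratio they were farther apart at AT5G19890 (0.0947 and 0.611 CPM) and AT4G33720 (0.0947 and 0.423 CPM). All 15 kept their call in each of the 16 alternative settings that gave them a value.

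Sequence just upstream of these genes is shown because 2 short motifs are linked to this pathway: ATGTAC, an element bound by EIN3, and GCCGCC, the GCC box bound by ERF factors. Both were searched on both strands of the 300 bases before the annotated gene start (RefSeq, TAIR10.1, which carries the nuclear chromosomes of the TAIR10 build of the files); the motifs cannot overlap each other. ATGTAC occurred before 11.5% of the loci called lower, 11.6% of those called higher and 11.4% of all 21123 tested loci that have a window. GCCGCC occurred before 20 of 512 loci called lower (3.91%), 3 of 424 called higher (0.708%) and 2.35% of all tested. Of the 15 largest falls 3 had GCCGCC and 2 had ATGTAC, of the 15 largest rises none had GCCGCC and 4 had ATGTAC (MLP328, AIR1, VSP1 and AT3G58550), and of the 17 signalling and feedback genes 2 had ATGTAC. The stretches below, from genes that fell and, for comparison, from 2 that rose (MLP328 and AIR1), run 5′ to 3′ on the strand of the gene, with the motif or its reverse complement in capitals.
AT5G19890, minus strand, chr5:6726021-6726080: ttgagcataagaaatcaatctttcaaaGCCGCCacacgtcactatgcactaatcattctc
OSM34, minus strand, chr4:7026264-7026323: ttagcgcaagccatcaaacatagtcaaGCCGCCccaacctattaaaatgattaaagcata
ORA59, plus strand, chr1:1882650-1882709: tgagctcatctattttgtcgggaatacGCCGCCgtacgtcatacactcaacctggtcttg
AT2G18690, plus strand, chr2:8097159-8097218: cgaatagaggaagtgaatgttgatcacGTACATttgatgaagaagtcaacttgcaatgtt
Rap2.6L, plus strand, chr5:4271649-4271708: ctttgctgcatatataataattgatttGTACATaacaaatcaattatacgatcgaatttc
ERS2, minus strand, chr1:1157820-1157879: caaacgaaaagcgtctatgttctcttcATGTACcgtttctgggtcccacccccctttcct
MLP328, plus strand, chr2:235643-235702: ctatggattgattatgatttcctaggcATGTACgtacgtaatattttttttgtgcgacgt
AIR1, plus strand, chr4:7438841-7438900: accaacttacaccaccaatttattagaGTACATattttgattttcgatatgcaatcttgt
The motif begins 87 bases before the annotated start in AT5G19890, 72 in OSM34, 230 in ORA59, 234 in AT2G18690, 54 in Rap2.6L, 39 in ERS2, 255 in MLP328 and 247 in AIR1. Rap2.6L holds a further ATGTAC motif 223 bases before its start. A match is a description of letters and was not tested against binding in these roots.

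The 15 largest rises were of genes with varied annotations. MLP328, an MLP-like protein of the latex protein family, was at 88.7 and 58.6 CPM in rhd6rsl1 and 667 and 624 CPM in the quadruple mutant (3.13 ± 0.19, adjusted p = 2.1e-08). CYP710A4, a sterol desaturase of the cytochrome P450 family, went from 4.72 and 6.45 to 47.4 and 38.6 CPM (2.94 ± 0.16, adjusted p = 2.7e-09). AIR1, an auxin-induced protein of root cultures, went from 242 and 244 to 1050 and 1200 CPM (2.21 ± 0.12, adjusted p = 2.7e-09). Close relatives rose as well, namely MLP329 (0.85 ± 0.13), CYP710A3 (1.13 ± 0.29) and AT4G12545 (1.79 ± 0.10); the counting of reads shared by such copies is not stated, so part of each value could come from the relative.

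Further rises of at least 2.46 on the log2 scale were those of AT1G14120, an oxygenase of the 2-oxoglutarate family (2.72 ± 0.28), TLL1, a lipase-like gene (2.62 ± 0.29), and AT4G22610, of the lipid-transfer family (2.46 ± 0.20). The neighbouring pair AT3G25830 and AT3G25820, both annotated as 1,8-cineole synthase TPS-CIN, rose by 2.18 and 2.13; the copies are nearly identical and their reads cannot be told apart. VSP1, a vegetative storage protein gene and a jasmonate marker, went from 5.01 and 4.64 to 21.8 and 17.3 CPM (2.02 ± 0.23, adjusted p = 2.8e-05). DR4, a drought-repressed protease inhibitor gene, went from 231 and 167 to 656 and 732 CPM (1.8 ± 0.16, adjusted p = 1.9e-06). AT4G28940, AT4G11320, AT3G26460, AT3G58550 and AT5G37990 completed the 15. The rhd6rsl1 replicates were unequal at several of these: AT5G37990 was at 13.8 and 4.04 CPM there against 43.4 and 21.5 CPM, and AT3G26460 at 6.19 and 2.36 against 24.7 and 13.8 CPM. AT5G37990 (adjusted p = 0.032) lost the call in 6 of 16 alternatives, with p up to 0.35, AT3G26460 in 1, and the other 13 in none.

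**Figure D3:**
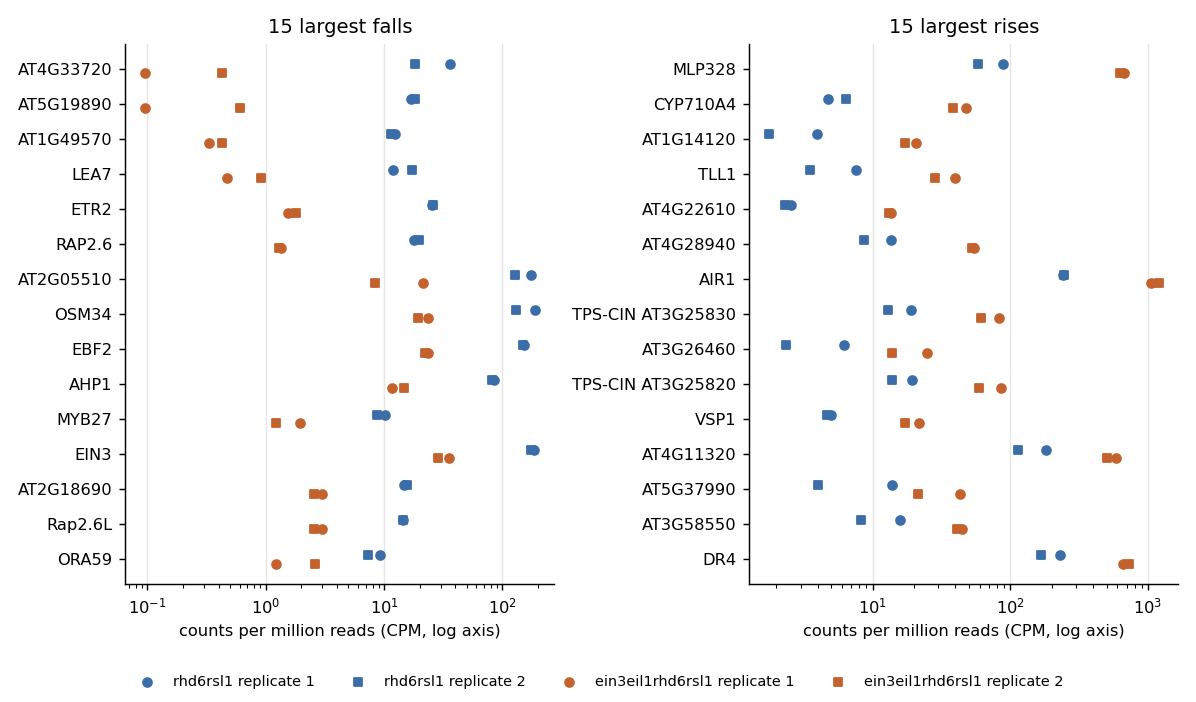
Levels in CPM (log axis) of the 15 largest falls (left) and rises (right) in the quadruple mutant against rhd6rsl1, untreated, with 1 point per library. No locus has overlapping groups, which the rule for choosing them required; the widest gaps are those of AT4G33720 and AT5G19890 on the left and of MLP328 on the right.

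Part of the root hair genes were near 0 in all 4 libraries of this comparison. Of the 17 RHS genes none was called, and 13 were below 1 CPM in all 4 libraries while all 17 reached at least 1 CPM in both Col-0 libraries. Of 31 genes of hair growth and wall, 13 were likewise below 1 CPM in all 4. Others of that list were far above this level in both genotypes. RHD3 was at 286 and 294 CPM in rhd6rsl1 and 276 and 253 CPM in the quadruple mutant, and FER at 342 and 334 against 319 and 259 CPM. RSL4, the bHLH factor that sets hair length, was at 0 and 0.156 CPM in rhd6rsl1 and at 0.0473 and 0.0470 CPM in the quadruple mutant. RSL2 was at 0.147 and 0.130 against 0.0473 and 0.0470 CPM, levels of a few reads. LRL1 and LRL2, related factors, were at 85.7 and 85.3 against 71.2 and 73.7 CPM and at 36.0 and 39.3 against 36.0 and 40.0 CPM; none of the 7 genes of these families was called.

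Of the same 31 genes of hair growth and wall 3 fell and none rose, against 2.37% of all loci called lower. PRX44, a peroxidase of the hair wall, was at 24.4 and 23.0 CPM in rhd6rsl1 and 14.2 and 17.2 CPM in the quadruple mutant (-0.59 ± 0.12, adjusted p = 0.0058). LRX2, a leucine-rich repeat extensin, was at 55.8 and 60.4 against 44.1 and 31.2 CPM (-0.62 ± 0.13, adjusted p = 0.0068). RHD2, the NADPH oxidase RBOHC of the hair tip, was at 46.3 and 44.1 against 38.5 and 29.5 CPM (-0.41 ± 0.11, adjusted p = 0.044). The lower value came from replicate 2 of the quadruple mutant in LRX2 and RHD2, and without it both lost the call (adjusted p = 0.10 and 0.46), whereas PRX44 kept it (0.0073). The changes of LRX2 and RHD2 were then -0.39 and -0.23. With the length trend removed LRX2 stayed called (-0.58, adjusted p = 0.0043) and RHD2 did not (-0.29, adjusted p = 0.058). MRH1 and MRH2 were then called higher (0.41 and 0.74, adjusted p = 0.011 and 0.019).

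Epidermal patterning genes were level but for 1. SCM (SCRAMBLED) is the receptor-like kinase that conveys position to epidermal cells. It was at 16.6 and 15.3 CPM in rhd6rsl1 and 28.8 and 20.3 CPM in the quadruple mutant (0.62 ± 0.14, adjusted p = 0.018). The genotypes did not overlap at SCM, nor at 45.9% of all loci tested. SCM lost the call in 4 of 16 alternative settings, and with the length trend removed it was at 0.71 (adjusted p = 0.0016). GL2, WER, CPC and the other 8 tested did not pass, with log2 fold changes of -0.62 to 0.33.

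Of 7 defence genes of the ethylene and jasmonate branch that were tested, OSM34, PR4 and PR3 fell, none rose and 4 were not called. Over all loci 2.37% were called lower. OSM34, an osmotin, was at 188 and 129 CPM in rhd6rsl1 and at 23.5 and 19.2 CPM in the quadruple mutant (-2.89 ± 0.21, adjusted p = 2.1e-07). PR4, a hevein-like protein, was at 427 and 307 against 103 and 115 CPM (-1.75 ± 0.16, adjusted p = 2.3e-06), and the basic chitinase PR3 at 177 and 149 against 82.9 and 95.2 CPM (-0.87 ± 0.18, adjusted p = 0.0086). All 3 stayed called without replicate 2 of the quadruple mutant. Across 16 alternative settings PR3 lost the call in 1, and PR4 and OSM34 in none. MYC2, the main jasmonate regulator, was at 109 and 107 against 125 and 110 CPM and was not called. With the length trend removed MYC2 was called higher (0.25, adjusted p = 0.022).

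Phosphate starvation genes gave 5 falls and no rise among 16 tested, against 2.37% of all loci called lower, with a median of -0.26. SPX1, a phosphate sensor, went from 21.3 and 23.2 to 8.26 and 11.2 CPM (-1.19 ± 0.15, adjusted p = 7.4e-05), and PAP17, an acid phosphatase, from 29.7 and 27.6 to 13.1 and 12.7 CPM (-1.15 ± 0.17, adjusted p = 0.00039). RNS1, PHT1;4 and PHO1 fell by 0.82, 0.69 and 0.42 on the log2 scale, and all 3 lost the call without replicate 2 of the quadruple mutant (adjusted p = 0.083, 0.087 and 0.28), with changes of -0.83, -0.63 and -0.31. RNS1 and PHT1;4 stayed called with the length trend removed (0.0057 and 0.0051), and PHO1 did not (0.054). The main phosphate transporter gene PHT1;1 was at 474 and 390 against 436 and 402 CPM and the regulator PHR1 at 42.8 and 43.8 against 39.8 and 40.1 CPM, neither of them called.

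Other nutrient genes went in mixed directions. Among 24 iron genes 3 rose and 1 fell, against 1.95% of all loci called higher and 2.37% called lower. The oligopeptide transporter OPT3, which loads iron into the phloem, rose from 22.4 and 18.8 to 45.2 and 34.7 CPM (0.95 ± 0.19, adjusted p = 0.0070). BHLH38, a factor of iron deficiency, and NAS2, a nicotianamine synthase, rose by 1.07 and 0.80, and the citrate exporter FRD3 fell by 0.59; these 3 were not called without replicate 2 of the quadruple mutant (adjusted p = 0.074, 0.20 and 0.19), with changes of 0.96, 0.70 and -0.51. IRT1 and FRO2, the uptake machinery itself, were at 583 and 657 against 575 and 659 CPM and at 336 and 431 against 359 and 308 CPM. In nitrogen metabolism the nitrate reductase NIA1 rose from 58.5 and 57.6 to 148 and 101 CPM (1.1 ± 0.14, adjusted p = 0.00011), while NRT1.8 fell from 5.53 and 9.46 to 3.03 and 2.30 CPM (-1.49 ± 0.26, adjusted p = 0.0025; 0.063, at -1.30, without replicate 2 of the quadruple mutant). SULTR1;1, a sulfate transporter, was the 1 of 9 sulfur genes called, from 0.880 and 0.778 to 0.0473 and 0.188 CPM (-2.78 ± 0.47, adjusted p = 0.0016).

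Hormone and stress lists each gave a few calls. Over all loci 1.95% were called higher and 2.37% lower, and the auxin and cold lists held larger shares of calls. Of 27 auxin response genes 1 rose, IAA3 (0.54 ± 0.10), and 3 fell, PBP1 (-1.07 ± 0.29), GH3.3 (-0.96 ± 0.18) and GH3.2 (-0.56 ± 0.13). The GH3 genes encode enzymes that conjugate auxin, and both lost the call without replicate 2 of the quadruple mutant (adjusted p = 0.076 and 0.12), GH3.3 at -0.79 and GH3.2 at -0.53. Auxin synthesis and transport gave 4 rises of 22, all under 1.5-fold: YUC6, CYP79B2, ASB1 and LAX2. Without replicate 2 of the quadruple mutant they were at 0.62, 0.60, 0.25 and 0.40 on the log2 scale. Across 16 alternative settings LAX2 lost the call in 14, DESeq2 among them, ASB1 in 6, CYP79B2 in 5 and YUC6 in 2. Of 12 cold genes and type-A response regulators of cytokinin tested, 1 rose and 3 fell. ARR7 rose from 2.84 and 1.71 to 6.01 and 6.93 CPM (1.5 ± 0.23, adjusted p = 0.00053). ARR3 fell from 23.9 and 22.6 to 14.2 and 14.8 CPM (-0.68 ± 0.11, adjusted p = 0.00093). RD29A and KIN1, which respond to cold and drought, fell by 1.35 and 1.12 on the log2 scale. TCH3, a calmodulin-like touch gene, and the clock gene CCA1 were the only ones called among 11 touch and 11 clock genes, lower by 0.80 ± 0.12 and 0.59 ± 0.16; CCA1 lost the call without replicate 2 of the quadruple mutant (adjusted p = 0.21) at a like change of -0.58.

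ER bodies are compartments of the endoplasmic reticulum that store beta-glucosidases against herbivores. PYK10, their main beta-glucosidase, was at 7460 and 6440 CPM in rhd6rsl1 and 10300 and 10500 CPM in the quadruple mutant (0.58 ± 0.11, adjusted p = 0.0036). NAI1, the bHLH factor that controls them, rose by 0.56 ± 0.09 and the structural protein gene NAI2 by 0.45 ± 0.10. The homologues BGLU21 and BGLU22 did not pass the test, which makes 3 of 5 called, against 1.95% of all loci called higher. Without replicate 2 of the quadruple mutant PYK10, NAI1 and NAI2 were at 0.58, 0.56 and 0.52.

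Lists of other cell types moved little. None of 11 endodermis, 5 root cap, 16 suberin or 19 photosynthesis genes was called in either direction. Of 10 vascular genes VND6, SEOR1 and SUC2 rose, by 0.98 ± 0.26, 0.43 ± 0.11 and 0.41 ± 0.10, against 1.95% of all loci called higher. Across 16 alternative settings VND6 and SEOR1 each lost the call in 8 and SUC2 in 4. The summed level of the list was 595 and 572 CPM in rhd6rsl1 and 704 and 633 CPM in the quadruple mutant. VND6 lost the call without replicate 2 of the quadruple mutant (adjusted p = 0.16) at a like change of 1.00, and the suberin transporter gene ABCG2 gained it (0.012). The share of vascular tissue in the roots was not tested. Cell cycle, heat shock and flavonol lists, of 16, 6 and 7 genes tested, also held no call; the 16 cell cycle genes all lay above 0, from 0.06 to 0.56 with a median of 0.23, and had no member called.

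**Figure D4:**
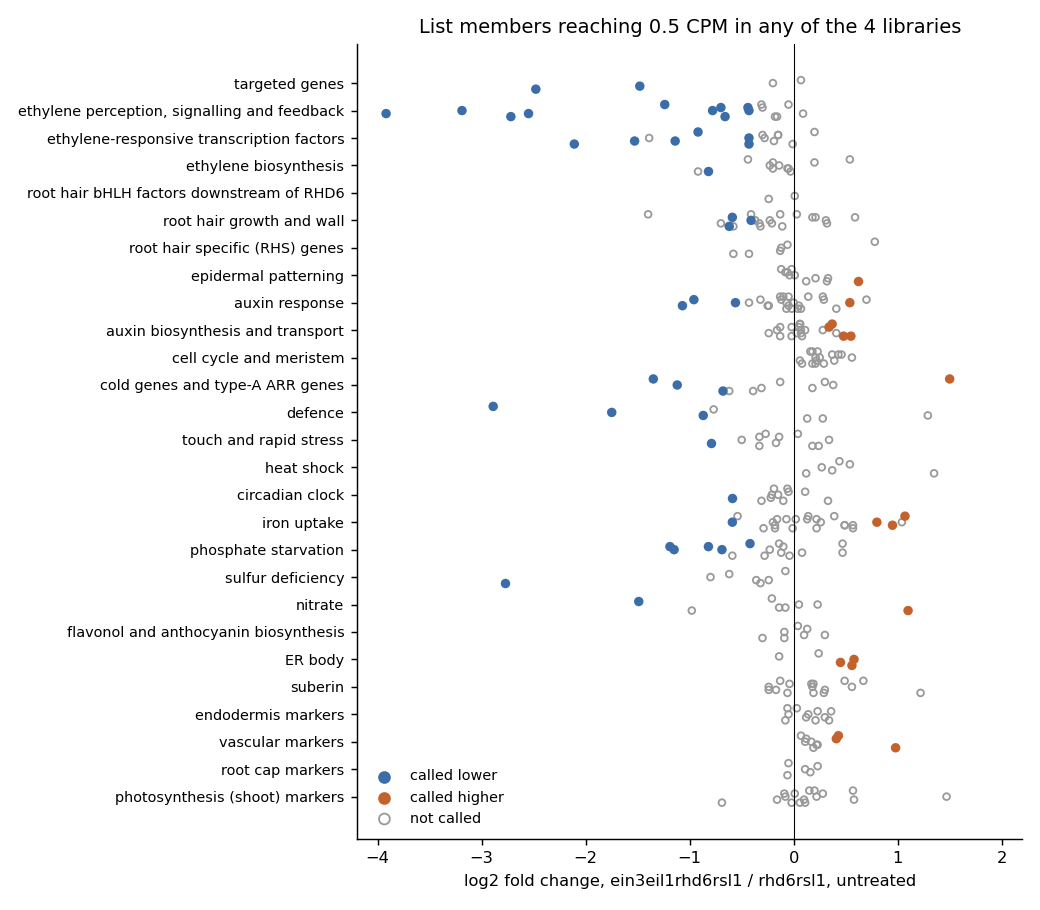
Log2 fold change of the quadruple mutant over rhd6rsl1, untreated (x axis), for the members of 27 gene lists (y axis) that reached 0.5 CPM in any of the 4 libraries; filled points passed an adjusted p of 0.05. The ethylene signalling list has 10 members called lower and none higher, and the RHS list has none called.

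The same loss of EIN3 and EIL1 in haired roots, ein3eil1 against Col-0 untreated, was read from 4 other libraries. There 1255 loci were called (5.63%), 566 higher (2.54%) and 689 lower (3.09%). Of the 529 loci lower in hairless roots 288 were lower in haired roots as well, which is 54.4% of the first list and 41.8% of the second, and 504 had the same sign. Of the 436 higher, 251 were higher in both, which is 57.6% and 44.3%, and 413 had the same sign. Across the 965 loci the log2 fold changes of the 2 comparisons correlated at r = 0.78, and across all 22304 at r = 0.38; loci are not independent replicates, and only the first set was chosen for being called. ETR2 changed by -3.92 and -3.64 in hairless and haired roots, EBF2 by -2.72 and -2.49, ARL by -3.19 and -3.09, MLP328 by 3.13 and 3.01 and AHP1 by -2.66 and -2.18. Other named loci were less alike: ORA59 changed by -2.11 and -0.71, OSM34 by -2.89 and -1.46 and AT3G58550 by 1.84 and 3.1. ORA59 was not called in haired roots, and the test of the difference below called none of these loci.

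The difference between the 2 backgrounds was tested as an interaction in the same fit, and 13 loci (0.0583%) passed, 9 with a higher change in hairless roots (0.0404%) and 4 with a lower one (0.0179%); 1119 had an unadjusted p below 0.05, and DESeq2 called 65. No member of the 27 lists other than TCH3 passed. AT5G19250, a GPI-anchored glycoprotein gene, had the largest difference of those with a mean of at least 5 CPM (4.81 ± 0.15, adjusted p = 4.1e-12): it was at 86.4 and 78.0 CPM in Col-0 and 2.71 and 2.97 CPM in ein3eil1, yet at 64.9 and 68.8 CPM in rhd6rsl1 and 59.1 and 71.7 CPM in the quadruple mutant. ein3eil1 libraries thus stood alone at this locus. AT5G35935 had a like pattern, at 25.9 and 25.3, 8.91 and 9.74, 21.0 and 23.7, and 24.2 and 21.8 CPM in the same order of genotypes. ARP9, an actin-related protein gene, was high in ein3eil1 alone, at 33.6 and 34.2 CPM against 15.9 to 21.3 CPM in the 6 other untreated libraries. In SQP2, a squalene monooxygenase gene, the hairless lines differed: 11.3 and 9.85 CPM in rhd6rsl1 and 32.7 and 32.8 CPM in the quadruple mutant, against 74.1 and 86.8 CPM in Col-0 and 64.8 and 68.4 CPM in ein3eil1.

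TCH3 went in opposite directions, from 44.3 and 38.6 to 23.1 and 24.3 CPM in hairless roots (-0.80 ± 0.12) and from 26.8 and 33.8 to 36.5 and 46.2 CPM in haired roots (0.45 ± 0.12). It was 1 of 4 loci called in both comparisons with opposite signs; the others, named after their values were seen, were ARP9, AT1G08340 and AT5G39060. The remaining loci of the 13, named likewise, were LOX1, MES1, LBD41, AT5G11330 and CYP716A1, besides AT2G19410 and AT1G59850. Of the RHS list 11 of 17 fell in haired roots and none in hairless roots, where most were near 0, and no RHS gene passed the test of the difference. Suberin genes likewise had 8 of 16 higher in haired and none in hairless roots, with no difference called. In haired roots 3.09% of all loci were called lower and 2.54% higher. The simulated recovery of a 2-fold difference of this kind was 58.8%, and of a 1.5-fold one 1.52%. Each locus was simulated at its mean over all 16 libraries, so these shares do not apply to genes near 0 in hairless roots.

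**Figure D5:**
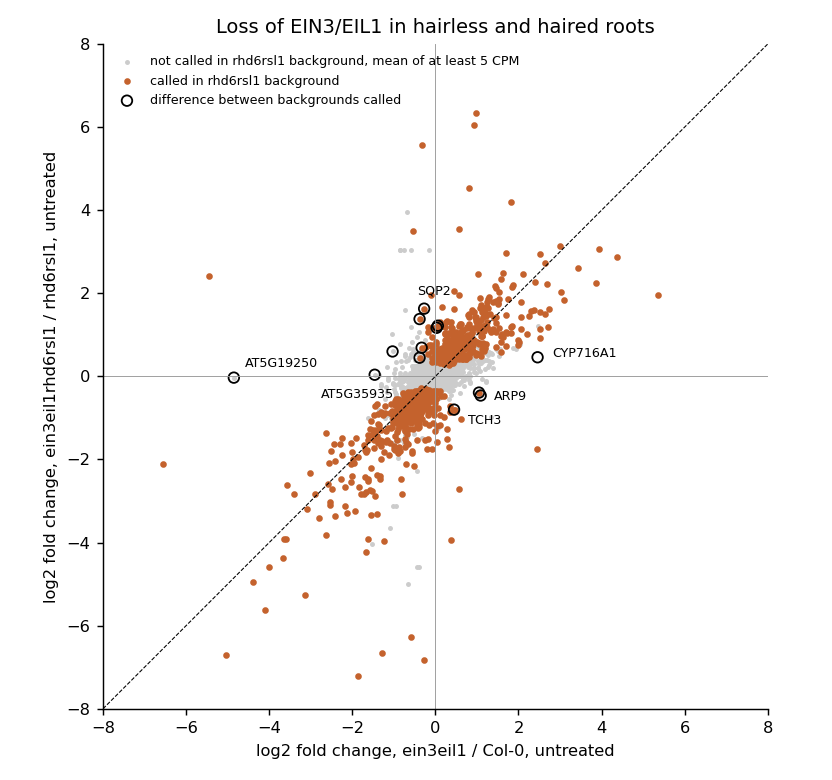
Log2 fold change on loss of EIN3/EIL1 in haired roots (x axis, ein3eil1 over Col-0) and hairless roots (y axis, quadruple mutant over rhd6rsl1), untreated; the dashed line marks equal change and open circles the 13 loci whose difference was called. Most loci called in hairless roots lie in the quadrants of equal sign, while AT5G19250 lies at -4.85 on the x axis and -0.03 on the y axis.

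Under ethylene the same pair of genotypes differed at more loci, 6917 (31.0%), 3986 of them higher (17.9%) and 2931 lower (13.1%) without EIN3 and EIL1. Of the 529 loci lower without treatment 377 were lower under ethylene, 71.3% of the first list and 12.9% of the second, and of the 436 higher 342 were higher, 78.4% and 8.58%; 56 were called in opposite directions, 36 of them lower without treatment. The interaction of treatment and genotype was called at 3959 loci (17.8%), 1536 with a higher (6.89%) and 2423 with a lower change (10.9%) in untreated roots. Of the 17 signalling and feedback genes 9 had a smaller fall in untreated roots. ETR2 changed by -3.92 untreated and -6.24 under ethylene (difference 2.32, adjusted p = 2.5e-06), ARGOS by -2.55 and -7.02 (4.47, adjusted p = 5.7e-08), and EBF1 by -1.24 and -2.24 (1.00, adjusted p = 6.3e-06). The ACC oxidase gene ACO5 (-0.82 and -0.93) and the phosphate gene PAP17 (-1.15 and -0.76) were called in both with no difference called (adjusted p = 0.63 and 0.30).

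Of the 10 loci named for this difference, the 5 highest and 5 lowest with a mean of at least 5 CPM, 8 were not called between the genotypes in untreated roots. AT5G40590 was called lower there, at 4.50 and 5.24 against 1.51 and 2.09 CPM (-1.43 ± 0.37, adjusted p = 0.037). AT5G46900 and AT5G46890, a neighbouring pair of lipid-transfer family genes, were at 397 to 450 and 354 to 435 CPM in the 4 untreated libraries; under ethylene they were at 7.35 and 7.83 and at 6.46 and 6.76 CPM in rhd6rsl1 and at 549 and 552 and at 540 and 552 CPM in the quadruple mutant. The pectin lyase-like pair AT1G05650 and AT1G05660 behaved alike. GH9C1, a cellulase, and AT5G04960, a pectin methylesterase inhibitor family gene, were at 0.094 to 0.259 and 0.147 to 0.329 CPM in the 4 untreated libraries and at 38.2 and 38.9 and at 25.8 and 25.1 CPM in rhd6rsl1 under ethylene. The peroxidase AT1G49570 likewise differed already without treatment, and its fall deepened from -4.96 to -9.47. Replicate 1 of the ethylene-treated quadruple mutant was high in photosynthesis transcripts, at 1840 CPM against 274 to 358 CPM in the other 3 of that comparison; without it and a Col-0 library of the same kind 3845 loci were called, 3245 of them shared.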

How the data were processed

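The authors deposited, per the file headers, whole-number read counts and RPKM values per transcript model for each library; recomputing RPKM from the counts and lengths gave the deposited values. BWA 0.7.7 and the TAIR10 build are named in the submitters' processing notes. The series' design text gives TruSeq libraries read in pairs, and the labels give poly(A) RNA. Counting tool, strand setting and treatment of multiply mapped reads are not stated.

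Counts of 39640 models were summed to 33518 loci. RPKM was not tested. edgeR 4.0.16 (R 4.3.3) was fitted to all 16 libraries in 8 groups with TMM factors and its default expression filter, which left 22304 loci (common biological coefficient of variation 0.0938). Quasi-likelihood F tests with Benjamini-Hochberg adjustment over all loci were called at 0.05; a standard error is the log2 fold change divided by the square root of F. With 2 replicates a group, p-values rest on the spread shared by all groups. On simulated counts 74.9% of 2-fold changes were recovered in the main comparison (21942 loci). Apart from the changes set, each locus had the same level in all groups, its mean over the 16 libraries, and no length trend was simulated.

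Loci named were the 15 largest rises and falls among called loci with a mean of at least 5 CPM and no overlap, up to 5 each way for the 2 differences, and list members by size. Further list members, called or not, were named after their values were seen. The comparison, lists and rules were chosen with earlier results of these data known. Alternatives were DESeq2 1.42.0, other scaling, filters and sample sets, a replicate block, and each library left out.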

Additional observations from a re-analysis of the deposited data

Results flagged for a closer look

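The change on loss of EIN3 and EIL1 differed between hairless and haired untreated roots, by edgeR's test of the difference itself, at 13 loci. Given here are the 5 highest differences and the only 2 lower ones among loci with a mean of at least 5 CPM. Log2 differences, hairless minus haired, were 4.81 for AT5G19250, 1.9 for SQP2, 1.76 for AT2G19410, 1.63 for AT1G59850, 1.5 for AT5G35935, -1.44 for ARP9 and -1.26 for TCH3. AT2G19410 was at 0.831 and 0.933 CPM in rhd6rsl1 and 2.2 and 2.4 CPM in the quadruple mutant, against 14.9 and 17.3 CPM in Col-0 and 14 and 10.9 CPM in ein3eil1. AT1G59850 was at 1.30 and 1.56, 2.32 and 2.00, 15.6 and 15.7, and 8.36 and 7.03 CPM in the same order.

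The change in hairless roots differed between untreated and ethylene-treated seedlings, by the same kind of test, at 3959 loci. Given here are the 5 highest and 5 lowest differences among called loci with a mean of at least 5 CPM; called loci of lower mean level can differ more. Log2 differences, untreated minus ethylene, were 6.97 for GH9C1, 6.12 for DIR5, 5.29 for AT5G40590, 4.98 for AT5G04960 and 4.51 for AT1G49570, all with the deeper fall under ethylene. They were -6.27 for AT1G05650, -6.23 for AT5G46890, -6.22 for AT5G46900, -6.09 for AT3G54830 and -5.6 for AT1G05660, which were higher in the quadruple mutant under ethylene. DIR5 was at 0.905 and 0.829 CPM in rhd6rsl1 and 0.805 and 0.188 CPM in the quadruple mutant without treatment, and at 30.1 and 38.4 against 0.116 and 0.444 CPM with it.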

How the results depend on the processing

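For the comparison of the quadruple mutant with rhd6rsl1, 965 loci became 2084 with no filter on low counts, 604 with only the groups compared, and 477 without replicate 2 of the quadruple mutant and with the length trend removed; leaving out 1 library gave 463 to 3357. The difference between backgrounds, 13 loci, became 65 with DESeq2, 231 with no filter, 27 with only the groups compared, and 34 without the libraries high in photosynthesis transcripts; leaving out 1 library gave 5 (rhd6rsl1 replicate 1, ein3eil1 replicate 2) to 261 (quadruple mutant replicate 1), with 7 without Col-0 replicate 2 and 8 without ein3eil1 replicate 1. Without quadruple mutant replicate 1, removing the length trend as well lowered the counts of the main comparison and of the difference between backgrounds. The cause of these shifts was not tested. The difference from ethylene, 3959 loci, stayed within 2818 to 5490. DESeq2 called 1293 loci in the main comparison, RLE scaling 959 (398 higher and 561 lower). Of 1714 results of named loci under alternatives, 1569 kept their side of the threshold, 141 lost the call and 4 gained it. None that was called in either fit reversed. For loci called in neither fit a change of sign was not counted. Removal of the length trend was chosen after seeing the data.

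With the replicate number as a block, the counts were 950, 8 and 3806. The numbers did not pair the samples: deviations of same-numbered libraries correlated at -0.08 to 0.21 over 28 pairs of groups, 2 of them over 0.1.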

Other observations

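Gene families that stood out in the quadruple mutant are given here as counts; they were chosen after their values were seen, and 4.33% of all loci were called. Of 8 genes of the MD-2-related lipid recognition family 6 rose and none fell, also without replicate 2 of the quadruple mutant. AT5G23840 went from 78.5 and 70.6 CPM in rhd6rsl1 to 178 and 223 CPM (log2 fold change 1.43 ± 0.12), and AT1G45015 from 25.3 and 25.7 to 59.5 and 62.9 CPM (1.26 ± 0.11). Of 39 polyketide cyclase and MLP-like genes 11 rose and none fell, 11 without that library. AT4G23670 went from 191 and 116 to 510 and 455 CPM (1.65 ± 0.21). Neighbouring copies in such families may share reads.

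Class III peroxidases, which act on cell walls, had 9 of 66 lower and 2 higher. AT4G37530 fell from 49.0 and 44.2 to 12.1 and 11.3 CPM (-1.99 ± 0.13), while AT2G38390 rose from 35.7 and 26.3 to 105 and 78.3 CPM (1.56 ± 0.24). WRKY transcription factor genes had 11 of 59 lower and none higher, but 3 lower without replicate 2 of the quadruple mutant; WRKY26 went from 17.6 and 14.4 to 9.28 and 8.53 CPM (-0.84 ± 0.16). Cytochrome P450 genes had 20 of 186 higher and 6 lower, which became 13 and 3 without that library.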
